A study of Mus musculus with 2 samples.

Results

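Carcinoma cells rich in Lcn2, the gene of the secreted iron carrier lipocalin-2, were described in a single-cell RNA library of mouse brain. A barcode, which stands for one captured cell, was taken as a non-cycling carcinoma cell by 3 gates on unique molecular identifiers (UMIs, counted RNA molecules). The epithelial genes Epcam, Krt8 and Krt18 had to sum to at least 8 UMIs, the leukocyte genes Ptprc, Csf1r and Laptm5 to at most 3, and the mitotic genes Top2a, Cenpf, Birc5, Ube2c and Ccnb1 to fewer than 8. Among these, a barcode was Lcn2-high where Lcn2 made up at least 0.3% of its UMIs. The rule found 1103 Lcn2-high barcodes among 3946 non-cycling carcinoma barcodes, a share of 28.0% (95% Clopper-Pearson interval 26.6 to 29.4%, 1 library). They made up 10.2% of the 10842 barcodes of that library, and the other 2843 non-cycling carcinoma barcodes served as their comparison. The barcodes were thus selected on the measured UMIs of Lcn2 and the gate genes, whose values are a description only.

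The series holds 2 libraries of brain tissue from Balb/c mice, 1 titled control and 1 titled positive, made to study how metastases of 4T1 remodel the brain. 4T1 is a mouse mammary carcinoma line of the triple-negative type, which lacks hormone receptors and Her2. The labels disagree among themselves: under treatment, the library titled positive is given as free of metastasis and the one titled control as carrying it. The libraries are therefore named by title, and no difference with or without metastasis was drawn. Ages and the number of animals per library are not in the labels. With 1 library per group, no test, standard error or p-value was possible, every difference stands without a replicate check, and all intervals cover counting error only.

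Lipocalin-2 binds the siderophores with which bacteria take up iron. It is a granule protein of neutrophils and is also secreted by epithelia during inflammation and by mammary tumours, where transcription factors of the NF-kB, STAT and C/EBP families are known to drive the gene. Lactoferrin (Ltf) and ceruloplasmin (Cp), a copper-carrying ferroxidase, are further secreted proteins of iron handling made by epithelia.

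All of the carcinoma barcodes described were in the titled positive library, which held 98141261 UMIs. In the titled control library, of 10417 barcodes and 55657687 UMIs, 10 barcodes passed the 3 gates. None of those 10 held an Epcam UMI, and none was Lcn2-high. The count of 0 of 10417 allows a share of up to about 0.0288%, taken as 3 barcodes of 10417 and not as a Clopper-Pearson limit. The libraries shared 149 barcode sequences, 16 of them among the Lcn2-high barcodes. A doublet caller marked 3.10% of the titled positive barcodes, with 20 (1.81%) among the Lcn2-high and 47 (1.65%) among the other non-cycling carcinoma barcodes.

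Depth was similar in both sets. The Lcn2-high barcodes held 10008233 UMIs in all, with a median of 8199 UMIs and 2726 genes per barcode. The other non-cycling barcodes held 26410255 UMIs, with medians of 8752 UMIs and 2793 genes. Median mitochondrial shares were 3.46% and 3.73% of UMIs, and ribosomal protein genes took 13.8% and 15.9%. The nuclear transcripts Malat1 and Neat1 together took 0.148% and 0.0858%.

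The bases before the RefSeq start site are shown for 4 genes because the results turn on these genes. They are Lcn2, which defines the barcodes, and Fetub and Ltf, which differed most among the genes given as markers. Vim, the mesenchymal gene that ran against Lcn2, is the last. The windows are the 250 bases before the RefSeq start site on GRCm38.p6, written 5′ to 3′ on the gene's strand. They lie at chr2:32387740-32387989 (minus strand, Lcn2), chr16:22918132-22918381 (plus strand, Fetub, the first of 2 listed windows), chr9:111019042-111019291 (plus strand, Ltf) and chr2:13574061-13574310 (plus strand, Vim). The start sites differ from those of the GENCODE loci. The Lcn2 window lies wholly inside the GENCODE locus, chr2:32384633-32388252. The Fetub and Ltf windows run past the GENCODE starts, at 22918334 and 111019271. Capitals mark matches, on either strand, to the patterns GGGANNNNCC (kappaB), TTGCNNAA (C/EBP), TTCNNNGAA (STAT) and AGGAAG (ETS).
Lcn2: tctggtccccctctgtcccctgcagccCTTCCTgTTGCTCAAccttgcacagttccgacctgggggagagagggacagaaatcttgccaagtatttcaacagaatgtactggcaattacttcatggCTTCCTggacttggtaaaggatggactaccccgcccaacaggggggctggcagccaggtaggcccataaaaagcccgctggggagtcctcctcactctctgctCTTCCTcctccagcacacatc
Fetub: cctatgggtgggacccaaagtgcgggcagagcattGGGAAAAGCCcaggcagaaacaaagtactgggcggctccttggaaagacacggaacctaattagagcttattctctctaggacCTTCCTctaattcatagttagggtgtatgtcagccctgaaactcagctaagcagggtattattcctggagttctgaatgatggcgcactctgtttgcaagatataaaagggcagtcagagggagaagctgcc
Ltf: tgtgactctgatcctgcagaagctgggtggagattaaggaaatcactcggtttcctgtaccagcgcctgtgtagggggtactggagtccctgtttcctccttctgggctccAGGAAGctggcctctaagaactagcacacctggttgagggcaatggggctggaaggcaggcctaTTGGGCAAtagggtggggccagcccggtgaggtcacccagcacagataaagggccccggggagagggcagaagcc
Vim: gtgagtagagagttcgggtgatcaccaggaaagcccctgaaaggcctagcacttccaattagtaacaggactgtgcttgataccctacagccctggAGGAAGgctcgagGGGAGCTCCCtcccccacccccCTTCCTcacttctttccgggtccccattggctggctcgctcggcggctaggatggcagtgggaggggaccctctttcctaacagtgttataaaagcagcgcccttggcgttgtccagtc

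The Lcn2 window held the C/EBP match TTGCTCAA at -216 and ETS matches on the reverse strand at -223, -124 and -21, each counted from the start site to the first base. The Fetub window held the kappaB match GGGAAAAGCC at -215 and a reverse ETS match at -132. The Ltf window held a C/EBP match at -75 and an ETS match at -139. The Vim window held a kappaB match at -141, which reads the same on both strands, and ETS matches at -154 and -119. None of these matches overlapped another pattern, and the 4 windows held no STAT match. The window of the marker Cldn4 was searched as well, held no match to any of the patterns, and is not shown. Such matches are common, since of 32851 windows of this length, 17.6% held the kappaB pattern, 9.56% the C/EBP, 7.02% the STAT and 29.5% the ETS pattern. Of 359 windows matched to 275 of the 392 genes at least 2-fold higher in Lcn2-high barcodes, 25.3%, 14.2%, 7.80% and 36.2% held them in the same order. Over 10793 windows of all genes compared, the shares were 22.4%, 7.32%, 5.90% and 28.0%. A match is a stretch of letters and not a shown binding site.

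Lcn2 took a median of 0.862% of UMIs in the Lcn2-high barcodes and 0.0263% in the other non-cycling ones, a median of 71 against 2 UMIs. The highest barcode reached 8.58%, and 465 of the 1103 were at or above 1%. Among the other barcodes, 484 (17.0%) held no Lcn2 UMI. The 0.3% line ran through a shallow dip between a low and a high range, with 66 barcodes at 0.25 to 0.3% and 75 at 0.3 to 0.35%. The barcodes just outside and just inside the line differed little in Cp (1756 and 1856 CPM, the summed counts of a set scaled to its total UMIs) and in Ltf (290 and 264 CPM). They stood further apart in Fetub, at 49.5 and 119 CPM.

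**Figure D1:**
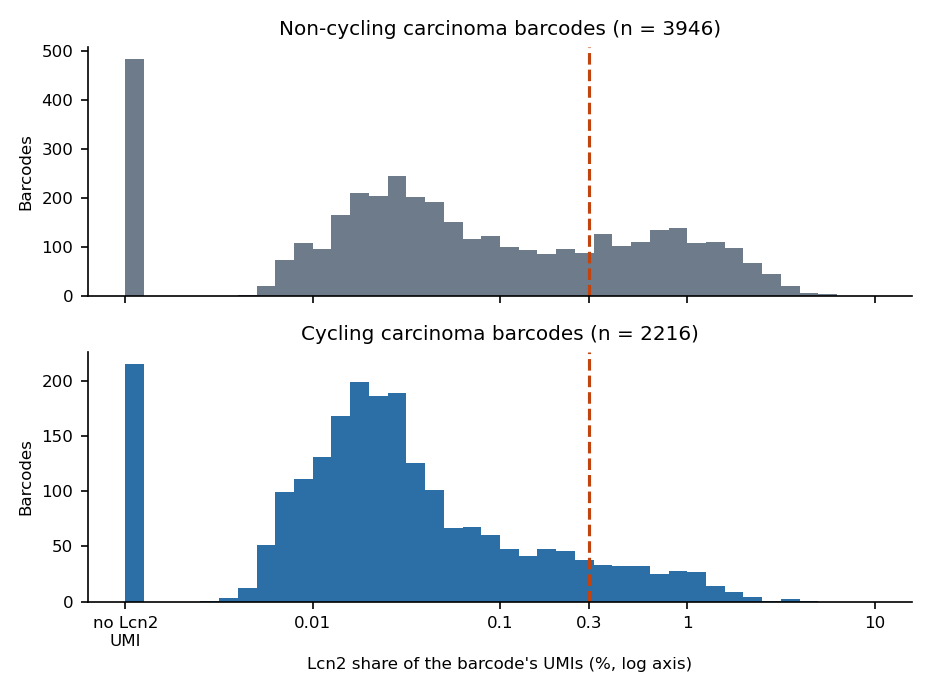
Lcn2 as a percent of a barcode's UMIs (x axis, log scale) against the number of barcodes (y axis), for 3946 non-cycling and 2216 cycling carcinoma barcodes of the titled positive library. The leftmost bar holds barcodes with no Lcn2 UMI and the dashed line marks 0.3%, which 1103 non-cycling and 217 cycling barcodes reach.

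Lcn2 RNA was not limited to these cells. The library held 196335 Lcn2 UMIs, of which 56.7% were in the 1103 Lcn2-high barcodes. Neutrophils were gated on S100a8 and S100a9 at 1% of UMIs or more, a minimum of UMIs from Csf3r, Cxcr2 and Retnlg, and few epithelial UMIs. The 104 barcodes so gated had the higher Lcn2 level, 15952 CPM against 11123 CPM, but held 4.62% of the library's Lcn2 UMIs. Other carcinoma barcodes stood at 483 CPM, macrophage-gated barcodes at 259 CPM and oligodendrocyte-gated barcodes, which serve here as a class that should lack the gene, at 263 CPM. The median share was 0.0196% in those oligodendrocyte-gated barcodes and 0.0263% in the other carcinoma barcodes. Their median depths differed, at 4504 and 8752 UMIs, so like shares need not mean like amounts of free RNA. How much of the low values was free RNA was not tested. Of 47 endothelial-gated barcodes, 23.4% also passed the 0.3% line, at 2207 CPM over the gate.

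The 5 further genes given as markers for these cells were all higher in the Lcn2-high barcodes. Since the cells were proposed with these genes in view, the values are a description. On GRCm38 the protein-coding loci are chr16:22918334-22939778 (Fetub), chr9:111019271-111042767 (Ltf), chr3:19957054-20009145 (Cp), chr5:134945119-134946934 (Cldn4) and chr7:126623249-126630861 (Nupr1), and Lcn2 is at chr2:32384633-32388252. Fetub, which encodes the plasma protease inhibitor fetuin-B, stood at 224 CPM against 6.32 CPM, a log2 ratio of 5.14 (95% interval 4.92 to 5.38). Ltf stood at 476 against 37.5 CPM (log2 ratio 3.67, 3.57 to 3.77). Cp stood at 2679 against 591 CPM (2.18, 2.15 to 2.21); its locus overlaps Hps3 on the opposite strand, and whether counting used strand is not stated in the labels. Cldn4, a claudin that seals tight junctions, stood at 444 against 99.9 CPM (2.15, 2.08 to 2.22). Nupr1, a small stress-induced chromatin protein, stood at 1159 against 457 CPM (1.34, 1.30 to 1.38).

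The markers were spread unevenly over single barcodes. Cp was the most general, with a UMI in 99.5% of Lcn2-high barcodes, 78.1% of the others and 33.3% of oligodendrocyte-gated barcodes, whose median depth was 4504 UMIs. Its median per barcode was 2326 CPM against 296 CPM, and 4.82% of the other barcodes lay above the Lcn2-high median. Fetub had a UMI in 39.9% of Lcn2-high barcodes, 4.05% of the others and 1.65% of the oligodendrocyte-gated ones, and Ltf in 38.0%, 13.3% and 5.33%. With every barcode thinned to 3000 UMIs these became 28.9%, 1.72% and 1.29% for Fetub and 27.4%, 5.91% and 3.49% for Ltf. In the other carcinoma barcodes Fetub was thus found little more often than in oligodendrocyte-gated ones. At that depth Cldn4 was found in 62.6%, 22.3% and 2.94%. At least 3 of the 5 markers were found in 36.9% (3 markers), 25.2% (4) and 5.80% (5) of Lcn2-high barcodes, against 10.8%, 1.37% and 0% of the others. Fetub and Ltf were often found in different barcodes: at 3000 UMIs 96 Lcn2-high barcodes held both, 223 Fetub alone and 206 Ltf alone. Ltf was found in 30.1% of those with Fetub and in 26.3% of those without.

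Over the whole transcriptome, 10960 genes with at least 100 UMIs in both sets together were compared. At least 2-fold higher in the Lcn2-high barcodes were 392 genes (3.58%), and at least 2-fold lower were 352 (3.21%). The median log2 ratio over all genes was 0.03, and 5783 genes (52.8%) lay above 0. These shares are the base for the counts of list members given below.

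The 25 genes with the highest ratios (at least 200 UMIs over both sets, gate genes left out) ran from 2.36 to 5.14 on the log2 scale. Beside Fetub and Ltf, they included several secreted or surface proteins of glandular epithelium. Gabrp, a GABA-A receptor subunit found in mammary epithelium, stood at 49.4 against 3.14 CPM (log2 ratio 3.97, 3.64 to 4.33), with a UMI in 23.8% against 2.15% of barcodes. Lbp, the lipopolysaccharide-binding acute phase protein, stood at 52.6 against 4.32 CPM (3.60, 3.31 to 3.91). In neutrophil-gated barcodes Lbp was higher, at 170 CPM, while Gabrp was at 1.76 CPM. Muc1, a membrane mucin of the apical surface, stood at 84.0 against 10.3 CPM (3.03, 2.83 to 3.23). Tmprss4, a membrane serine protease, had a log2 ratio of 3.18 and Cxcl5, a chemokine that attracts neutrophils, one of 2.51.

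A further group of the 25 were enzymes. Arg2, the mitochondrial arginase, stood at 128 against 14.7 CPM (log2 ratio 3.13, 2.96 to 3.29). It was found in 46.2% against 10.2% of barcodes and 3.31% of oligodendrocyte-gated ones, and its locus overlaps Vti1b on the opposite strand. Arg2 was as high in macrophage-gated barcodes, at 128 CPM, and stood at 91.4 CPM in neutrophil-gated ones. Moxd1, a copper-dependent monooxygenase, stood at 156 against 19.6 CPM (2.98). Retinoid metabolism was represented by Aldh1a1, which makes retinoic acid from retinal (3.19), and Dhrs3, which turns retinal back into retinol (2.68). Dio2, which activates thyroid hormone, had a ratio of 3.08, and Fam20c, the kinase of secreted proteins, 2.92. Other members were Ehf, an epithelial ETS transcription factor (2.36), Bmf, a pro-apoptotic BH3-only protein (2.72), Tnfrsf21, a death receptor (2.73), and Rnf128, a ubiquitin ligase (2.41). Pxmp2 (2.85), a peroxisomal membrane protein, had a UMI in 19.8% of Lcn2-high barcodes and in 19.1% of oligodendrocyte-gated ones. The remaining genes of the 25 were Gdpd2 (2.99), Ankrd22 (2.81), Slc44a3 (2.78), BC025446 (2.55), Coro6, Prtn3 and Ly6d. Ly6d (4.99), a small surface protein of epithelia and lymphoid precursors, rested on few cells, since 10 barcodes held 71.3% of its Lcn2-high UMIs; of the 25 it was the only gene with over 50% in 10 barcodes.

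Prtn3, the neutrophil granule protease proteinase 3, stood at 38.4 against 4.09 CPM (log2 ratio 3.23, 2.92 to 3.55). Its level in neutrophil-gated barcodes was 596 CPM, so neutrophil RNA in carcinoma barcodes was measured beside it. The 18 genes listed as neutrophil markers summed to 1578 CPM in Lcn2-high and 829 CPM in the other barcodes. They summed to 308539 CPM in neutrophil-gated ones, whose gate used some of the 18. Of the 15 compared, 6 were at least 2-fold higher and 1, Mmp9, at least 2-fold lower, with a median log2 ratio of 0.89. Per barcode the summed level was nearly the same, with medians of 576 and 558 CPM. After removal of barcodes with at least 0.5% of UMIs from markers of another cell type (46 Lcn2-high, 4.17%, and 127 others, 4.47%), the log2 ratio of S100a8 went from 1.05 to 0.12. The same removal left Ltf at 3.71, Fetub at 5.21, Prtn3 at 3.20 and Lbp at 3.37. It put Camp, a neutrophil granule gene, at -0.26 in place of 1.36. S100a8 and Camp were among the markers used for that removal, so their change was in part set by it. Ltf, Fetub, Prtn3 and Lbp were not among those markers, so the removal did not act on them directly. Counted per UMI of S100a8, Lcn2 was at 14.5 UMIs in Lcn2-high, 1.30 in the other and 0.101 in neutrophil-gated barcodes, and Ltf at 0.620, 0.101 and 0.021. S100a9 kept the ratio of neutrophils in all of them, at 0.479, 0.472 and 0.474 UMIs. The rule selected on Lcn2 and the neutrophil gate on S100a8 and S100a9, so these ratios are a description only. Which cells the Lcn2 and Ltf RNA came from was not tested.

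**Figure D2:**
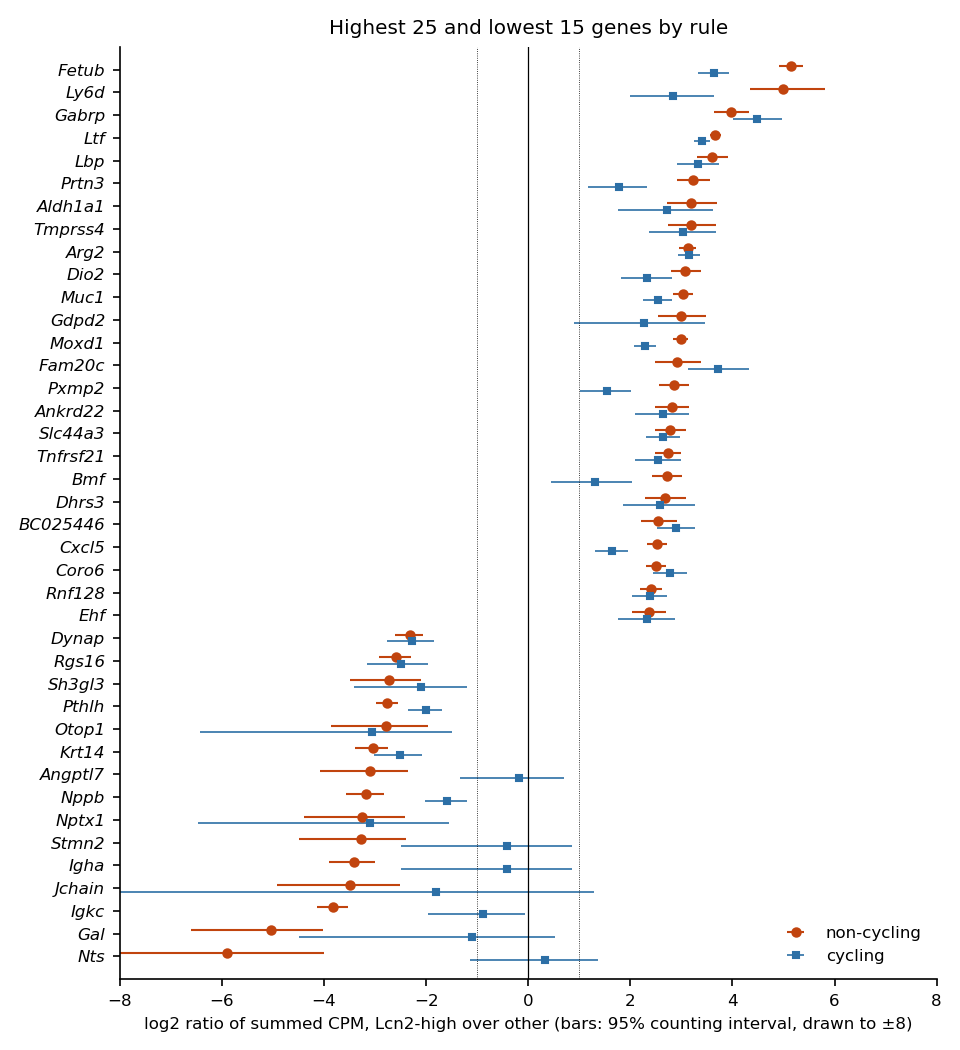
Log2 ratio of summed CPM, Lcn2-high over other barcodes (x axis), for the 25 highest and 15 lowest genes by that ratio (y axis), in non-cycling (circles) and cycling (squares) carcinoma barcodes. Bars are 95% counting intervals, drawn to ±8. Every one of the 25 highest genes lies to the right of 1 in both, while Nts, Stmn2, Igha and Angptl7 lie near 0 in the cycling barcodes.

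The 15 genes with the lowest ratios were divided by whether 10 barcodes held over 50% of their UMIs in the other set. In 9 they did not. Of these, Pthlh, which encodes the parathyroid hormone-related protein known for its part in bone metastasis, stood at 19.8 against 134 CPM (log2 ratio -2.76, -2.98 to -2.56). It had a UMI in 11.4% of Lcn2-high, 50.3% of other and 3.12% of oligodendrocyte-gated barcodes, and in 5.08%, 27.3% and 2.21% after thinning. Krt14, a keratin of basal and myoepithelial cells, stood at 8.49 against 70.4 CPM (-3.04, -3.38 to -2.74), found in 5.89% against 18.2% of barcodes and 3.68% of oligodendrocyte-gated ones. Nppb, a natriuretic peptide (-3.17), Rgs16, a regulator of G protein signalling (-2.59), Dynap (-2.33), Nptx1 (-3.25), Otop1, a proton channel (-2.78), Angptl7 (-3.10) and Sh3gl3 (-2.72) were the others. Angptl7 was found in 3.41% of the other barcodes, with 42.0% of its UMIs in 10 of them. Sh3gl3 had a UMI in 1.72% of Lcn2-high, 10.02% of other and 14.9% of oligodendrocyte-gated barcodes. In 6 genes, 10 barcodes held over 50%. These were the immunoglobulin genes Igkc (-3.82), Jchain (-3.48) and Igha (-3.42), and the neuronal or neuropeptide genes Nts (-5.90), Gal (-5.04) and Stmn2 (-3.27). Without barcodes rich in markers of other cells, Igkc turned to 0.18, Igha to 0.97 and Jchain to 0.67. These immunoglobulin genes were themselves among the markers used for that removal, so their change was in part set by it. With no leukocyte UMI allowed, a setting that does not use them, Igkc was 0.70, Igha 0.97 and Jchain 0.14. Nts was -0.35 with gates on thinned barcodes, no longer 2-fold. Gal and Stmn2 changed sign under another gate, to 0.57 with gates on thinned barcodes and to 0.36 with at least 16 epithelial UMIs.

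Pthlh and the hypoxia gene Car9, a carbonic anhydrase, were each found in a smaller share of Lcn2-high than of other barcodes. A UMI of either was present in 341 Lcn2-high barcodes (30.9%, 28.2 to 33.7%) and in 1945 others (68.4%, 66.7 to 70.1%), and in 7.90% of oligodendrocyte-gated barcodes. Thinned to 3000 UMIs, the shares were 15.96%, 43.9% and 5.88%.

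Lists of secreted defence and epithelial barrier genes held several of the given markers. Of 12 acute phase and secreted defence genes compared, 7 were at least 2-fold higher and none 2-fold lower, with a median log2 ratio of 1.56 beside 0.03 over all genes. Without the given markers Fetub, Ltf and Cp, 4 of 9 were at least 2-fold higher and the median was 0.84. The 4 were Lbp, the complement component C3 (224 against 57.3 CPM), the protease inhibitor Wfdc2 (5451 against 2346 CPM), and Chil1, for which 10 barcodes held 80.2% of the Lcn2-high UMIs. Saa3, an acute phase serum amyloid, was 148 against 129 CPM (0.20). Of 14 tight junction genes, 5 were at least 2-fold higher (median 0.73): Cldn4, Cldn3 (192 against 59.2 CPM), Cldn7 (78.6 against 35.6 CPM), the polarity gene Crb3 (1.52) and Marveld3 (1.40). Without Cldn4 the median was 0.66 over 13 genes. Of 19 epithelial identity genes, 5 were at least 2-fold higher and 2 lower, with a median of 0.47. Among the higher ones were the ETS factors Elf3 (66.1 against 13.6 CPM, log2 ratio 2.28) and Ehf, the keratin Krt23 (4.53) and Muc1. Krt14 and mesothelin, Msln (127 against 369 CPM, -1.54), were lower, and the simple keratin Krt7 was alike (1097 against 1014 CPM, 0.11).

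Mesenchymal genes were lower as a list. Of 15 compared, 3 were at least 2-fold lower and none higher, 14 lay below 0, and the median was -0.63. Vim, the intermediate filament vimentin, stood at 758 against 2842 CPM (log2 ratio -1.91, -1.94 to -1.87), with per-barcode medians of 399 and 2585 CPM. S100a4, a calcium-binding protein linked to metastasis, stood at 102 against 461 CPM (-2.17, -2.27 to -2.08), with per-barcode medians of 0 and 314 CPM. The third, Col1a1 (-1.16), rested on few barcodes and turned to 0.52 without barcodes rich in other cells' markers. Col1a1 was itself one of the markers used for that removal. With no leukocyte UMI allowed it was 0.83. Fibronectin, Fn1, was the exception at 1431 against 803 CPM (0.83). The transcription factors Zeb2 (-0.56), Snai1 (-0.48) and Twist1 (-0.63) were within 2-fold.

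**Figure D3:**
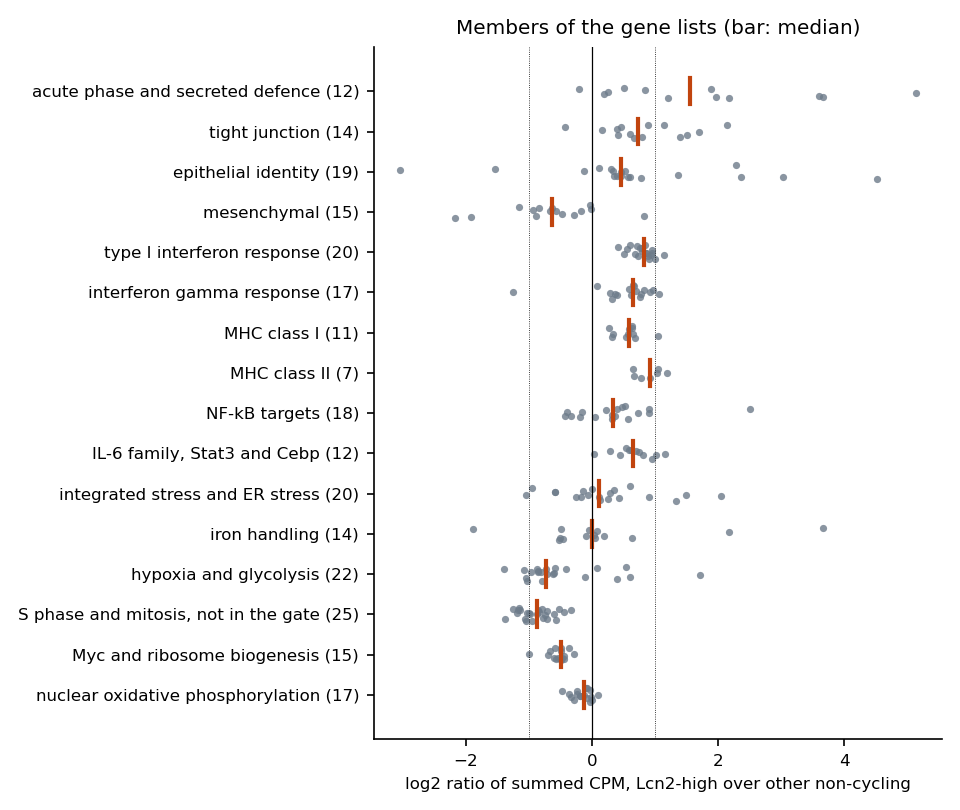
Log2 ratio of summed CPM, Lcn2-high over other non-cycling carcinoma barcodes (x axis), for each compared member (point) of 16 gene lists (y axis, number of members in brackets), with the list median as a bar and dotted lines at 2-fold. The acute phase median of 1.56 includes the given markers Fetub, Ltf and Cp and is 0.84 without them; S phase and mitosis genes have the lowest median drawn (-0.87).

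Interferon and antigen presentation genes were higher by less than 2-fold for most members. All 20 type I interferon response genes lay above 0 (median log2 ratio 0.83), where 52.8% of all genes did. Of the 20, 2 were at least 2-fold higher, among them the transcription factor Irf7 (216 against 98.1 CPM). The membrane protein Ifitm3, which restricts virus entry, stood at 4317 against 2491 CPM. Of 17 interferon gamma response genes 16 lay above 0 (median 0.65). The exception, Ubd (-1.25), had 69.3% of the other set's UMIs in 10 barcodes and turned to 0.06 with no leukocyte UMI allowed and to 1.58 with the line at 0.2%. All 11 MHC class I genes were above 0 (median 0.59), and so were all 7 MHC class II genes (median 0.93), led by the invariant chain Cd74 at 5200 against 2276 CPM (1.19, 1.18 to 1.21). Cd74 is also abundant in macrophages (16429 CPM in the gated barcodes). The macrophage list had a median ratio of 0.02 and summed to 919 and 809 CPM in the 2 carcinoma sets; its part in the MHC class II values was not tested. Class I members of the H2 family are alike in sequence and their reads can be split, so single values of them are uncertain.

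Of 18 NF-kB targets compared, 1 was at least 2-fold higher, Cxcl5 (69.2 against 12.1 CPM), and the median was 0.34, where 3.58% of all genes were 2-fold higher. Nfkbia, the inhibitor that NF-kB induces, stood at 417 against 335 CPM (0.31). Of 12 genes of the IL-6 family, Stat3 and C/EBP axis, all lay above 0 with a median of 0.66. The oncostatin M receptor Osmr (43.6 against 19.5 CPM, 1.16) and Cebpd (23.9 against 11.8 CPM, 1.02) were at least 2-fold higher, and Stat3 itself was at 72.4 against 44.4 CPM. Iron handling genes other than Lcn2 had a median of -0.00 over 14 genes: Ltf and Cp were higher, the reductase Steap3 was lower (-1.88), and ferritin heavy chain, Fth1, was at 22791 against 14623 CPM (0.64).

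Stress and hypoxia genes lay on both sides of 0. Of 20 integrated stress and ER stress genes, 3 were at least 2-fold higher and 1 lower (median 0.12). Xbp1, a transcription factor of the unfolded protein response and of secretory cells, stood at 375 against 90.9 CPM (2.04, 1.97 to 2.12), and the cystine transporter Slc7a11 was also higher (interval of the log2 ratio 1.16 to 1.84). The chaperone Hspa5 was at 1886 against 1877 CPM (0.01), and the Atf4 target Asns, asparagine synthetase, was lower at 52.9 against 109 CPM (-1.05). Of 22 hypoxia and glycolysis genes, 4 were at least 2-fold lower and 1 higher, and 17 lay below 0 (median -0.72). Car9 stood at 48.5 against 127 CPM (-1.39), and the glycolytic enzyme Gapdh at 1969 against 3444 CPM (-0.81). Pfkfb3 (1.72), which makes the activator of phosphofructokinase, was the one higher by 2-fold.

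Proliferation and growth genes that the gates did not use were lower even though both sets were gated as non-cycling. All 25 S phase and mitosis genes lay below 0, 9 of them at least 2-fold, with a median of -0.87. The replication helicase subunit Mcm6 stood at 109 against 224 CPM (-1.04). All 15 Myc and ribosome biogenesis genes lay below 0, none by 2-fold (median -0.49). The median UMI sum of the 5 gate genes for cycling was 1 in Lcn2-high and 2 in the other barcodes. Of 15 cell cycle arrest and p53 genes, 3 were at least 2-fold higher and 1 lower (median 0.20). Gadd45a (log2 ratio 1.51, 1.42 to 1.60), Btg2 (1.05) and Trp53inp1 (2.06) were the higher ones. The lower one was Cdkn1c, a cyclin-dependent kinase inhibitor (-1.12, -1.91 to -0.46), of which 10 barcodes held 56.4% of the other set's UMIs, and the p53 target Cdkn1a was at 40.4 against 58.8 CPM (-0.54). The 17 nuclear genes of oxidative phosphorylation differed by less than 2-fold throughout (median -0.13).

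Of the remaining lists, immediate early genes had a median of 0.33 over 18 members, with Fosl1 the one at least 2-fold lower (-1.57). Lysosome genes had a median of 0.33 over 16 and lipid and sterol synthesis genes one of -0.39 over 14. Of 6 milk and alveolar genes, 3 were at least 2-fold higher (median 0.81): Xdh (1.46), Csn3 (1.21) and Cd14 (1.36). Cd14 is also on the macrophage list, and the milk and alveolar list summed to 444 CPM in Lcn2-high but 1062 CPM in macrophage-gated barcodes. Csn3 was found in 7.80% of Lcn2-high and 7.74% of other barcodes, 10 barcodes held 57.4% of its Lcn2-high UMIs, and its ratio was 0.70 with no leukocyte UMI allowed. Metallothioneins had a median of 0.80 over 3, with Mt3 at least 2-fold higher and 84.9% of its Lcn2-high UMIs in 10 barcodes. Markers of other brain cells were low in both sets: oligodendrocyte markers summed to 773 and 1152 CPM against 53415 CPM in their own gate. Astrocyte markers summed to 232 and 295 CPM and fibroblast markers to 50.5 and 87.9 CPM. Ependymal and choroid plexus markers summed to 454 and 131 CPM, and 10 barcodes held 97.8% of the Ttr UMIs of the Lcn2-high set. Endothelial markers summed to 1542 and 750 CPM, of which Ly6c1, also a gene of other cells, made up 1520 and 709 CPM. Their part in the differences above was not tested, other than by the removal of the barcodes richest in them.

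Along the Lcn2 scale the differences were graded. Over barcodes with no Lcn2, up to 0.05%, 0.05 to 0.3%, 0.3 to 0.5%, 0.5 to 1%, 1 to 2% and at least 2%, Cp stood at 318, 374, 1204, 1910, 2383, 3081 and 3966 CPM. Fetub over the same ranges stood at 3.47, 2.96, 15.1, 96.0, 151, 328 and 421 CPM. Vim stood at 3403, 3022, 2158, 1260, 838, 407 and 445 CPM. Cp and Fetub thus were both higher already at 0.05 to 0.3% of Lcn2, below the line, and higher again above it. Pthlh went from 114 CPM at 0.05 to 0.3% to 25.8 CPM at 0.3 to 0.5%. Within the Lcn2-high barcodes, Mcm6 ranged from 181 CPM at 0.3 to 0.5% to 47.8 CPM at 2% and over, and Muc1 from 39.99 to 181 CPM.

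**Figure D4:**
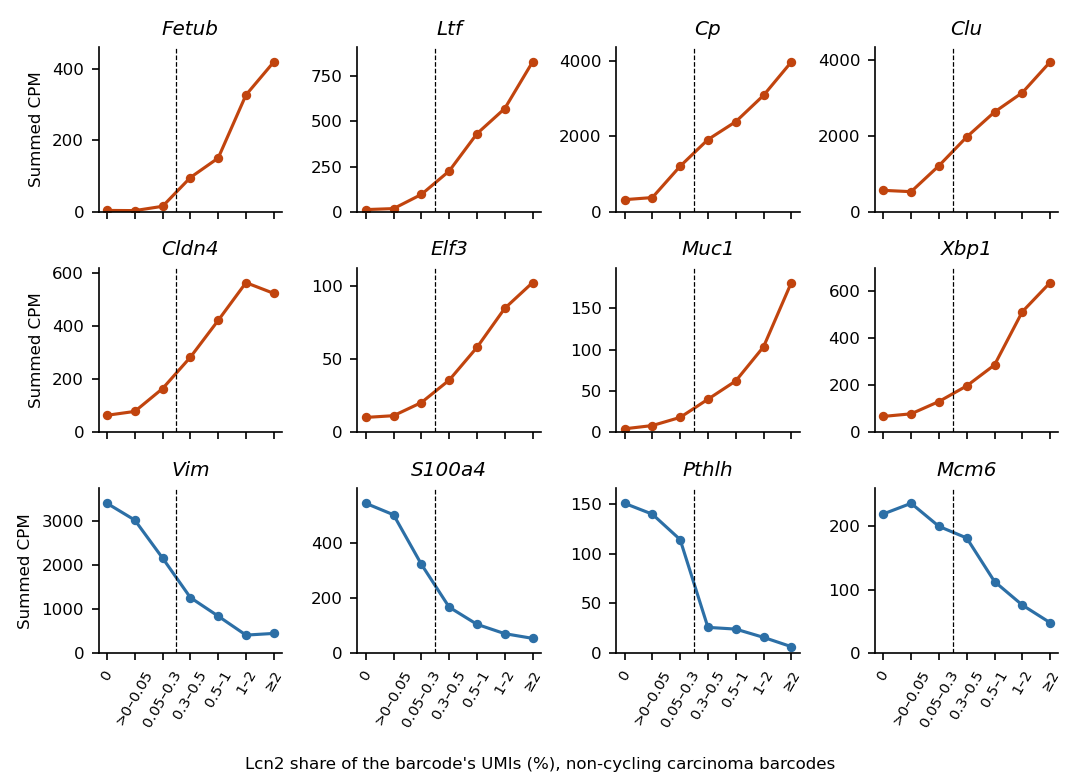
Summed CPM (y axis, from 0) of 12 genes in non-cycling carcinoma barcodes divided into 7 ranges of Lcn2 share (x axis, % of UMIs, 144 to 1526 barcodes each). The dashed line marks 0.3%; genes in the upper 2 rows are higher and genes in the bottom row lower to its right, and Cldn4 is at 563 CPM in the 1 to 2% range and 523 CPM at 2% and over.

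Across the 3946 non-cycling carcinoma barcodes thinned to 3000 UMIs, the genes whose level followed Lcn2 most closely by Spearman's rho were Cp (0.64), the paired membrane genes Tmem176b (0.59) and Tmem176a (0.56), clusterin, Clu (0.49), and Cd74 (0.48). Then came B2m (0.45), Ly6a (0.44), 1110008P14Rik (0.44), H2-K1 (0.44) and Wfdc2 (0.43). The most opposed were Vim (-0.55), Lgals1 (-0.53), Rps2 (-0.41), Gapdh (-0.40) and Lmna (-0.38). These barcodes share 1 library and its free RNA. Fetub and Ltf were not among the 10.

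The Lcn2-high barcodes were not of one kind. In a clustering of the non-cycling carcinoma barcodes made without the gate genes, cluster 5 held 752 of them (68.2%), and 88.0% of its 855 barcodes were Lcn2-high. Cluster 3 held 226 (20.5%), which were 23.2% of its 976 barcodes, and cluster 2 held 58. Cluster 4, of 715 barcodes, held none. The clusters were built from the same genes, so levels between them are a description. Cp was high among the Lcn2-high barcodes of both main clusters, at 3005 CPM in cluster 5 and 2251 CPM in cluster 3. Ltf stood at 660 CPM in the former and 18.9 CPM in the latter, Fetub at 308 and 36.8 CPM, and Cldn4 at 566 and 154 CPM. Vim ran the other way, at 390 and 1852 CPM, and so did Notum, a secreted Wnt inhibitor, at 34.0 and 132 CPM. Cluster 3 as a whole was led by Msmp, Serpine2, Wisp2 and Il11. A small part lay in clusters led by genes of other cells, 18 with oligodendrocyte genes (cluster 0) and 18 with neutrophil genes (cluster 7). Cluster 8, led by Ubd and Ctla2a, held 1. Cluster 1, led by Krt14, Ndrg1, Bnip3 and Car9, held 20. Cluster 6, of 437 barcodes, held 10 and was led by Gal, Ttr, Igha and Igkc. These leads need not describe most of cluster 6. Of the UMIs in the other non-cycling set, 10 barcodes held 99.3% for Gal, 96.1% for Igha and 96.2% for Igkc.

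The cycling carcinoma barcodes, which the rule left out, were divided at the same Lcn2 line. Of 2216, 217 were Lcn2-high, a share of 9.79% (8.59 to 11.1%) against 28.0% of the non-cycling ones. They were deeper, with median UMIs of 13370 in the Lcn2-high and 13690 in the other cycling barcodes, and Lcn2 stood at 8038 and 389 CPM. Of 10430 genes compared there, 304 (2.91%) were at least 2-fold higher and 222 (2.13%) at least 2-fold lower in the Lcn2-high barcodes.

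Most differences recurred in the cycling barcodes. Of 289 genes at least 2-fold higher in the non-cycling contrast and compared in both, 285 lay above 0 in the cycling contrast, where 51.5% of all genes did. At least 2-fold higher in both were 190, which is 65.7% of the 289 and 63.1% of the 301 in the cycling contrast. Of 294 genes at least 2-fold lower, 253 lay below 0 (48.5% of all genes did), and 117 were at least 2-fold lower in both, 39.8% of the 294 and 53.7% of the 218. All 25 highest named genes were at least 2-fold higher in the cycling barcodes too, 19 of them with at least 100 UMIs there, and 10 of the 15 lowest were at least 2-fold lower. Fetub stood at 70.7 against 5.70 CPM (log2 ratio 3.63), Ltf at 235 against 22.2 CPM (3.40), Cp at 1579 against 340 CPM (2.22), and Vim at 1131 against 2889 CPM (-1.35). Both contrasts come from 1 library and its free RNA, and Pearson's r across 10337 genes, which are not independent, was 0.72.

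Some lists differed in level between the contrasts. The 25 S phase and mitosis genes, all below 0 in the non-cycling contrast, had 15 above and 10 below 0 in the cycling one (median 0.06), and Mcm6 stood at 166 against 172 CPM. The 15 Myc and ribosome biogenesis genes lay below 0 in both, with medians of -0.49 and -0.45. NF-kB targets had a median of 0.34 in the non-cycling and -0.11 in the cycling contrast, and milk and alveolar genes 0.81 and 0.29. The differences between the contrasts were not tested.

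**Figure D5:**
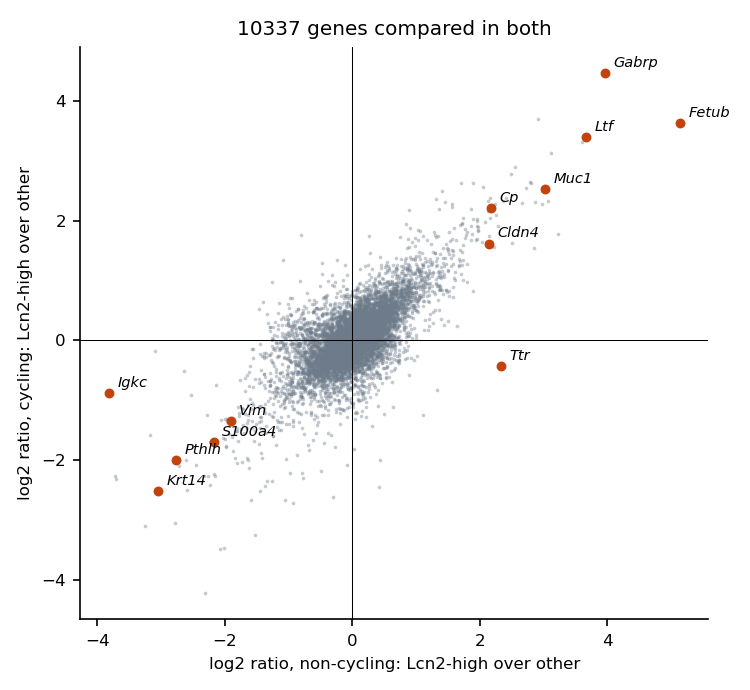
Log2 ratio of Lcn2-high over other barcodes for 10337 genes (points), in non-cycling (x axis) and cycling (y axis) carcinoma barcodes, with named genes in colour. Gabrp, Fetub, Ltf, Muc1, Cp and Cldn4 lie at the upper right and Krt14, Pthlh, S100a4 and Vim at the lower left. Ttr and Igkc, whose UMIs lie mostly in 10 barcodes of 1 set, lie off the diagonal.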

How the data were processed

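The authors deposited raw UMI counts per gene and barcode for 2 libraries, made with the Singleron GEXSCOPE microfluidic kit per the labels' protocols. Cell Ranger, without a version, and the build GRCm38 are named in the submitters' processing notes. How cells were called, whether strand was used and which annotation served are not stated there, and gene coordinates were taken from GENCODE M21. The labels' treatment field contradicts the titles, so groups follow the titles.

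Gates were applied to the deposited counts of every barcode. UMIs were summed over each set of barcodes and scaled to the set total as CPM. For log2 ratios 0.5 counts were added to each sum, and 95% intervals were exact binomial ones given the total of both sums. Genes with at least 100 UMIs over both sets were compared, and a ratio of at least 2 either way was counted. Barcodes of 1 library are not replicates, so no test was made. With 1 library per group the depth sets the counting error only.

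Named genes were the 25 highest and 15 lowest log2 ratios with at least 200 UMIs over both sets, without the 12 gate genes, the members of 31 gene lists, and the 10 highest and 5 lowest correlations with Lcn2. One list member is counted but not reported here by name. The members and lists were chosen with earlier results of these data known. Cluster lead genes, Notum and Camp were named after their values were seen. Comparison classes were gated on UMIs, with few epithelial UMIs allowed. The neutrophil gate used S100a8 and S100a9 with a minimum for Csf3r, Cxcr2 and Retnlg. Macrophage, oligodendrocyte and endothelial gates used their markers (20, 20 and 10 UMIs).

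Doublets were called by Scrublet in scanpy 1.11.5 and left in, with their removal as an alternative. Clusters came from the Leiden method (resolution 0.8, 2000 variable genes, 30 components, 15 neighbours). Python 3.11.15, numpy 2.4.6, pandas 2.3.3 and scipy 1.17.1 were used. The ratio and interval code was tested on simulated data. Alternatives changed the Lcn2 line, each gate, doublets, depth, the UMI minimum, the totals and the treatment of free, neutrophil and other cells' RNA.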

Additional observations from a re-analysis of the deposited data

How the results depend on the processing

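No paired analysis was possible because each group has 1 library, and no replicate could be left out. Over 17 alternative settings, 1622 of 1731 values of the 102 named genes and list members that were at least 2-fold apart stayed at least 2-fold apart. The share of Lcn2-high barcodes, 28.0%, was 31.98% with Lcn2 at 0.2% or more, 21.5% at 0.5% or more, 30.8% with the cycling gate below 4 UMIs and 25.9% with gates on barcodes thinned to 3000 UMIs. The count of genes at least 2-fold higher, 392 of 10960, was 228 of 8523 with barcodes thinned, 159 of 7023 with at least 500 UMIs, and 6847 of 26117 with no minimum, where a gene without a UMI has a ratio set by the pseudocount. The count at least 2-fold lower, 352, was 227, 146 and 1883 in the same settings, and 577 with 10% of UMIs subtracted as free RNA; thinning and the UMI minimum changed which genes were compared, and for free RNA the cause was not tested. Fetub ranged from 4.29 to 6.18 on the log2 scale, Ltf from 3.39 to 4.90, Cp from 2.06 to 2.88, Cldn4 from 2.08 to 2.55, Nupr1 from 1.17 to 1.67 and Vim from -2.26 to -1.74.

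For each of the 8 genes at least 2-fold apart whose log2 ratio changed sign, 10 barcodes held over 50% of the UMIs of the higher set. One alternative, chosen after seeing the data, left out barcodes rich in other cells' markers. There Camp was -0.26, Col1a1 0.52, Igha 0.97, Igkc 0.18, Jchain 0.67 and the fibroblast list median 0.28. These genes and the fibroblast list were among the markers used for that removal, so their changes were in part set by it. With no leukocyte UMI allowed, Col1a1 was 0.83, Igha 0.97, Igkc 0.70, Jchain 0.14, Ubd 0.062 and the fibroblast median 0.60. With at least 16 epithelial UMIs, Col1a1 and the fibroblast median were 0.018, Igha 0.95, Jchain 0.71, Stmn2 0.36 and Ubd 0.20. With gates on thinned barcodes, Gal was 0.57 and Ubd 1.71, and with the line at 0.2% Ubd was 1.58; the cause was not tested for any of these. Without barcodes with neutrophil UMIs, the ependymal and choroid plexus median was -0.25. Depth limits the genes under 100 UMIs over both sets, which were not compared.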
